A study of Mus musculus with 6 samples.

Results

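The MANF, CRELD and SDF2 genes form 3 small families of paralogs whose products pass through the endoplasmic reticulum (ER), and each family holds a member known to be induced by ER stress and a member known as constitutive. Manf, Creld2 and Sdf2l1 are the inducible members, and Cdnf, Creld1 and Sdf2 are their paralogs. All 6 genes were taken by symbol from the deposited table of 25718 genes, and all 6 passed the filter on low counts that left 15957 genes for testing. The table came from poly(A) RNA of primary hepatocytes of alcohol-fed male mice, with 3 libraries from WT mice and 3 from S100a16KO+/- mice. The mice were 8 to 10 weeks old and on a largely C57BL/6 background, and both genotypes went through the chronic-plus-binge ethanol model, which was 5 days of control liquid diet, 10 days of 5% ethanol diet and a gavage of 5 g/kg ethanol 9 hours before collection. S100a16KO+/- mice are heterozygous for a whole-body deletion made by crossing a floxed allele to EIIa-Cre mice, since loss of both alleles was lethal, and the labels call the same samples S100A16 knockdown. No library without ethanol was among the 6, so every difference below is a difference between genotypes under ethanol. The sources used here do not say whether each library came from a separate mouse or whether the WT mice were littermates, so p-values measure only the spread between these libraries, which may be partly technical.

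MANF and CDNF are small proteins first described as neurotrophic factors. MANF is held in the ER lumen by a C-terminal retention signal that KDEL receptors bind, associates with the chaperone BiP (Hspa5), and is secreted when ER calcium falls or unfolded proteins build up. CRELD1 and CRELD2 are cysteine-rich proteins with EGF-like domains, the former a membrane protein and the latter a soluble ER protein that is also secreted. SDF2 and SDF2L1 are luminal proteins with MIR domains that work with the ER co-chaperone Dnajb11. In the unfolded protein response, cleaved ATF6 and spliced XBP1 bind promoter elements such as the ER stress response element (ERSE), whose letters are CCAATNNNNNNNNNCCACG.

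The promoters of both paralogs of the CRELD and SDF2 families are shown so that the elements of inducible and constitutive members can be read side by side. Each is the RefSeq window from 250 bases before to 50 bases after the start, on build GRCm38.p6 and in the direction of the gene, and capitals mark CCAAT and CCACG boxes on either strand (as ATTGG and CGTGG on the reverse strand). A window was found for 5 of the 6 genes, and Manf had no entry. The Creld2 window was chr15:88819396-88819695 on the plus strand, that of Creld1 was chr6:113483106-113483405 on the plus strand, that of Sdf2l1 was chr16:17132334-17132633 on the minus strand, and that of Sdf2 was chr11:78245496-78245795 on the plus strand.
Creld2: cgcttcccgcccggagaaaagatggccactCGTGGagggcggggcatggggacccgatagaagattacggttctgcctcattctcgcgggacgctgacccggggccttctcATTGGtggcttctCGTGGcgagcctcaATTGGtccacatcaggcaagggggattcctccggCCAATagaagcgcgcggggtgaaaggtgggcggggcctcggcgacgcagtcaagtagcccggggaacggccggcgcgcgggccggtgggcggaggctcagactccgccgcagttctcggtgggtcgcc
Creld1: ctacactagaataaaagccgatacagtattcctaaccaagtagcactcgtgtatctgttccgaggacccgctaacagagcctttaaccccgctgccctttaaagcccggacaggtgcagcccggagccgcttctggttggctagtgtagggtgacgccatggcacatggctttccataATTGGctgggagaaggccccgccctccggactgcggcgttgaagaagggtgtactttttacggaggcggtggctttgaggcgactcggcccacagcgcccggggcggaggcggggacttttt
Sdf2l1: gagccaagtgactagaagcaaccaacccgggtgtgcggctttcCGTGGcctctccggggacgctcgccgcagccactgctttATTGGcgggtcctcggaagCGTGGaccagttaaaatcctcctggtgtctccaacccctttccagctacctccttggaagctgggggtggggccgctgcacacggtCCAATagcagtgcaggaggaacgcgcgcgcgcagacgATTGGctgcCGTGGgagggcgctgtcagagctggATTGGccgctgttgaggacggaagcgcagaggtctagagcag
Sdf2: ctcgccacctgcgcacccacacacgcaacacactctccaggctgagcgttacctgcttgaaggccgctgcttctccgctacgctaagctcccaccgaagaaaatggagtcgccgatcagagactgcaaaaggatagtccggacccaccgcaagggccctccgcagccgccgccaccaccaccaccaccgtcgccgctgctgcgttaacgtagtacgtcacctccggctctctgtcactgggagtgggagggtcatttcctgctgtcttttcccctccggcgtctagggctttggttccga

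The Creld2 window held 1 exact ERSE, on the reverse strand, and it was the only exact match among the 5 windows. It read CGTGGCGAGCCTCAATTGG on the strand printed, and its outermost base lay at -126 from the start. Over 32851 RefSeq promoter windows of the same length, 0.1187% held an exact ERSE. The Sdf2l1 window held 4 CCAAT and 3 CCACG boxes but no exact ERSE. The Creld1 window held 1 CCAAT box and no CCACG box, and the Sdf2 window held neither. The Cdnf window, not printed, held 3 CCAAT boxes and no CCACG box. Of all windows, 37.41% held CCAAT and 32.77% held CCACG, so single boxes were common. No window of the 5 held an exact ERSE-II (ATTGGNCCACG, in 0.03653% of all windows) or UPRE (TGACGTGG, in 0.6758%), both searched on both strands. These matches are letters in a window and were not tested as binding sites.

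The 6 libraries held 67658095 to 71807834 estimated counts. S100a16 itself had 1001, 1056 and 1107 counts in WT and 433, 390 and 366 in S100a16KO+/- libraries, a log2 fold change of -1.40 ± 0.11 (SE; edgeR quasi-likelihood test, adjusted p = 4.14e-07). The hepatocyte markers summed to 109875 to 122002 CPM (counts scaled to equal library sizes by the TMM method) in WT and 106571 to 118520 in S100a16KO+/- libraries. All 8 were detected, and 1 was called higher and 2 lower. Their detection shows hepatocyte RNA but cannot show how pure the hepatocytes were. WT replicate 1 and S100a16KO+/- replicate 2 stood apart from the other libraries on the second principal component (scores 10.6 and 16.9 against -8.83 to -4.32), and values without both are given where they bear on a result. In bulk libraries, fewer cells of a type and less RNA per cell cannot be told apart.

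The 3 inducible genes were all higher in S100a16KO+/- than in WT hepatocytes, by 3.48-fold to 11.3-fold. Their paralogs differed far less, since Creld1 and Sdf2 were 1.33-fold and 1.26-fold higher and Cdnf was not called. Of the 6 genes, 5 were called higher at an adjusted p under 0.05 (edgeR quasi-likelihood test, Benjamini-Hochberg over all tested genes) and 0 lower. Of all tested genes, 22.8% were called, with 11.6% higher and 11.2% lower. The criterion stated in the study's methods, p under 0.05 with at least a 2-fold change, was met by Manf, Creld2 and Sdf2l1 and by 4.52% of all tested genes. The CPM values of the genotypes did not overlap for 6 of 6 genes, against 37.9% of all tested genes. The median log2 fold change was 1.11 over the 6 genes and 0.01 over all tested genes.

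**Figure D1:**
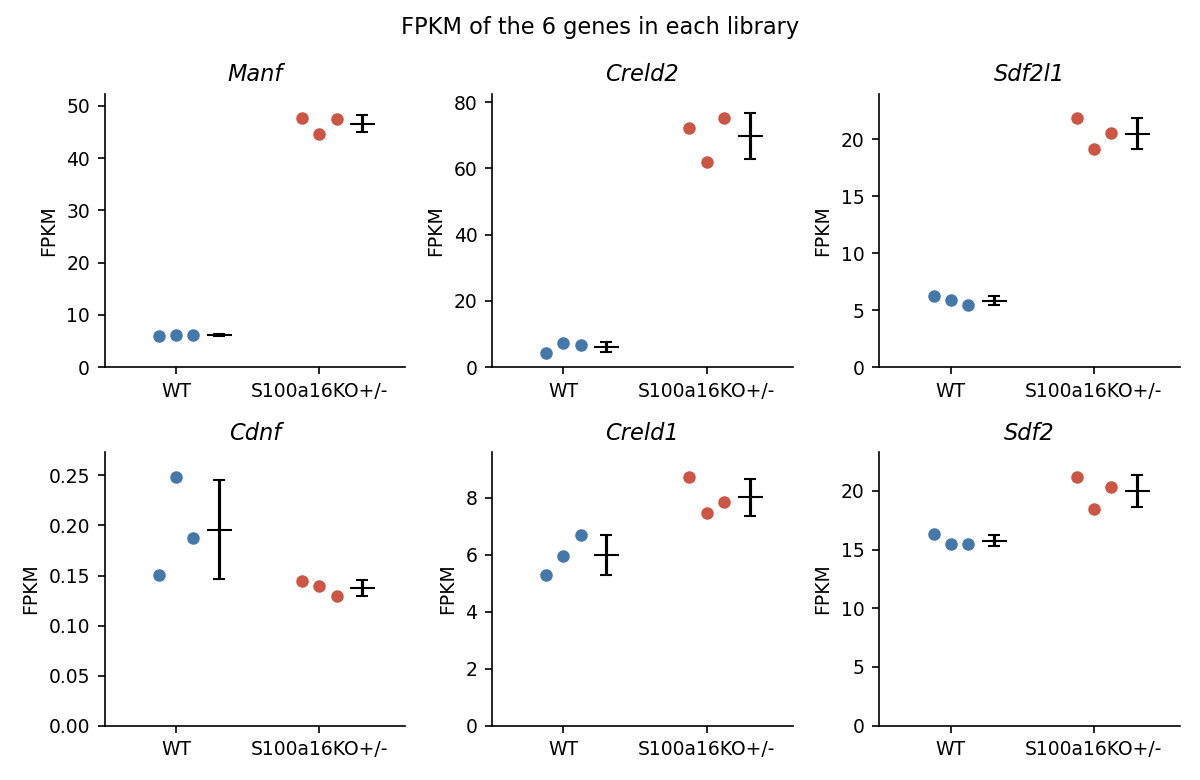
FPKM (abundance scaled for gene length and library size, y axis from 0, own scale in each panel) of the 6 genes in each WT library (blue) and S100a16KO+/- library (red), with the mean and SD of the 3 libraries in black. The top row holds the inducible genes and the bottom row their paralogs. Manf rose from a mean of 6.10 to 46.5 FPKM while Cdnf stayed under 0.25 FPKM in every library.

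Manf (ENSMUSG00000032575, chr9:106838312-106891915, minus strand, mm10) encodes the stress-inducible neurotrophic factor of the pair. Its estimated counts were 1690, 1648 and 1663 in WT and 12720, 11940 and 12902 in S100a16KO+/- libraries. Its FPKM values were 5.95, 6.12 and 6.24 in WT and 47.6, 44.7 and 47.4 in S100a16KO+/- libraries. The lowest S100a16KO+/- library was far above the highest WT library, and the libraries of each genotype lay close together. The log2 fold change was 2.92 ± 0.06 (SE, 95% interval 2.80 to 3.04), a 7.57-fold difference (edgeR, adjusted p = 1.34e-13), and it was the 41st largest increase of 15957 tested genes. Without WT replicate 1 and S100a16KO+/- replicate 2 it was again 2.92.

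Cdnf (ENSMUSG00000039496, chr2:3513030-3526376, plus strand) encodes the other neurotrophic factor of the pair. It had 38, 59 and 46 counts in WT and 35, 34 and 33 in S100a16KO+/- libraries. Here 1 sequenced fragment appeared to be worth about 4 counts, so these values rest on about 8.25 to 14.75 fragments a library. The libraries of the genotypes did not overlap, but the highest S100a16KO+/- value lay just under the lowest WT value. The log2 fold change was -0.47 ± 0.39 (SE, 95% interval -1.30 to 0.36; edgeR, adjusted p = 0.450), an interval that holds no difference and a fall of more than 2-fold but no rise above 1.29-fold.

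Creld2 (ENSMUSG00000023272, chr15:88819646-88826683, plus strand) encodes the soluble ER protein whose promoter held the ERSE. It had 484, 766 and 699 counts in WT and 7494, 6431 and 7928 in S100a16KO+/- libraries. FPKM values were 4.40, 7.34 and 6.79 in WT and 72.3, 62.1 and 75.1 in S100a16KO+/- libraries. WT replicate 1 was the lowest of the WT libraries, and this gene varied more among them than Manf did. The log2 fold change was 3.50 ± 0.16 (SE, 95% interval 3.11 to 3.88), an 11.3-fold difference (edgeR, adjusted p = 8.90e-06) and the largest of the 6 genes. It was the 23rd largest increase of all tested genes, and 3.37 without WT replicate 1 and S100a16KO+/- replicate 2.

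Creld1 (ENSMUSG00000030284, chr6:113483297-113493338, plus strand), the membrane-bound paralog, had 1814, 1940 and 2153 counts in WT and 2821, 2409 and 2584 in S100a16KO+/- libraries. Every S100a16KO+/- library was above every WT library, by a margin small beside that of Creld2. The log2 fold change was 0.41 ± 0.08 (SE, 95% interval 0.25 to 0.58), a 1.33-fold difference (edgeR, adjusted p = 0.00124). With limma on log2(FPKM + 0.1) and no filter on low values this gene was no longer called (log2 difference 0.42, adjusted p = 0.0761).

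Sdf2l1 (ENSMUSG00000022769, chr16:17130138-17132383, minus strand), the inducible MIR-domain protein, had 556, 496 and 454 counts in WT and 1835, 1608 and 1756 in S100a16KO+/- libraries. The genotypes were again fully apart, and the lowest S100a16KO+/- library was far above the highest WT library. The log2 fold change was 1.80 ± 0.10 (SE, 95% interval 1.59 to 2.01), a 3.48-fold difference (edgeR, adjusted p = 8.31e-09), and it was the 171st largest increase. Sdf2 (ENSMUSG00000002064, chr11:78245746-78255496, plus strand), its constitutive paralog, had 1989, 1794 and 1772 counts in WT and 2437, 2123 and 2380 in S100a16KO+/- libraries. Its libraries were close to one another, and the highest WT library lay under the lowest S100a16KO+/- library. The log2 fold change of Sdf2 was 0.33 ± 0.07 (SE, 95% interval 0.18 to 0.48), a 1.26-fold difference (edgeR, adjusted p = 0.00373).

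Within each pair, the ratio of the inducible gene to its paralog was compared between genotypes, because a ratio taken inside a library is free of its depth. The Manf to Cdnf ratio of FPKM values (0.01 added to each) had log2 values of 5.21, 4.57 and 4.98 in WT and 8.26, 8.22 and 8.41 in S100a16KO+/- libraries. Manf was thus a mean of 30.3 times the level of Cdnf in WT and 314.8 times in S100a16KO+/- libraries. With the length of the principal transcript of each gene, the mean level of Manf was 46.7 and 493.6 times that of Cdnf. The Creld2 to Creld1 ratio had log2 values of -0.27, 0.30 and 0.02 in WT and 3.05, 3.05 and 3.26 in S100a16KO+/- libraries. On these FPKM values, which take the union of exons as the length, Creld2 was 1.01 times Creld1 in WT and 8.69 times in S100a16KO+/- libraries, while with the length of the principal transcript it was 0.559 and 4.72 times. The Sdf2l1 to Sdf2 ratio had log2 values of -1.39, -1.40 and -1.51 in WT and 0.04, 0.05 and 0.01 in S100a16KO+/- libraries, so that on the same scale Sdf2l1 lay under Sdf2 in WT and beside it in S100a16KO+/- hepatocytes. The log2 ratios differed between genotypes by 3.38 for Manf to Cdnf, 3.10 for Creld2 to Creld1 and 1.47 for Sdf2l1 to Sdf2. The genotypes did not overlap in any of the 3 pairs, and the exact two-sided permutation test gave p = 0.1 for each, the smallest value that 20 assignments of 3 against 3 libraries allow, so this test cannot pass 0.05. The Manf to Cdnf ratio carries the counting error of Cdnf.

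**Figure D2:**
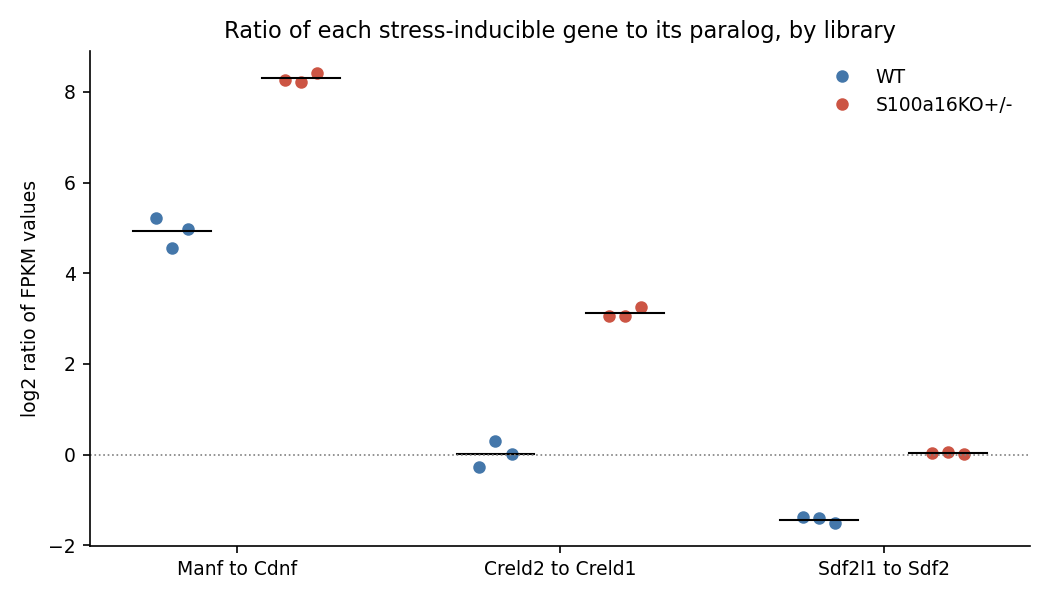
Log2 ratio of FPKM values (y axis) of each inducible gene to its paralog in each WT library (blue) and S100a16KO+/- library (red), with the mean of the 3 libraries as a black line and equal levels as the dotted line. In all 3 pairs the S100a16KO+/- libraries lie above the WT libraries, by a mean of 3.38, 3.10 and 1.47.

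In WT hepatocytes Sdf2 had the highest FPKM of the 6 genes, at 15.8 ± 0.452 (SD, n = 3). Creld2 (6.18 ± 1.57), Manf (6.10 ± 0.148), Creld1 (5.99 ± 0.711) and Sdf2l1 (5.84 ± 0.400) followed, and each of these overlapped the next in order. Cdnf was lowest, at 0.196 ± 0.0494. In S100a16KO+/- hepatocytes the order was Creld2 (69.8 ± 6.87), Manf (46.5 ± 1.63), Sdf2l1 (20.5 ± 1.35), Sdf2 (19.999 ± 1.40), Creld1 (8.02 ± 0.653) and Cdnf (0.138 ± 0.00798), in which only Sdf2l1 and Sdf2 overlapped. The lengths implied by the counts and FPKM values were 1.12 times the union of all annotated exons for 5 of the genes and 1.15 times for the low Cdnf. Manf has 7 annotated transcripts whose exons cover 3524 bases together, while the transcript marked principal in GENCODE M21 has 2247. With the principal transcript's length in place of the union, which was added after the data were seen, Manf rose to 10.7 ± 0.232 in WT and 81.6 ± 2.85 in S100a16KO+/- libraries, and Creld1 to 12.3 ± 1.42 and 16.5 ± 1.37. Creld2 was then 6.90 ± 1.73 and 78.1 ± 7.63, so that Manf and Creld2 overlapped in S100a16KO+/- libraries and did not in WT. Sdf2l1 was 6.53 ± 0.466 and 22.9 ± 1.53 and Sdf2 21.1 ± 0.681 and 26.7 ± 1.87 on this length, so that Sdf2l1 stayed under Sdf2 in both genotypes, with no overlap. The order of levels between genes thus depends on the length used, whereas the fold change of a gene and the change of a ratio do not. No run of 31 bases in the annotated transcripts of any of the 6 genes was shared with its paralog, so reads of paralogs can be told apart. Some runs were shared with other genes on either strand. These were 14.04% of the runs in Sdf2 (with Supt6) and 7.246% in Manf (with 4930524O07Rik and Dcaf1). They were 3.669% in Cdnf (with 1341 genes) and 0.6494% in Sdf2l1, and Creld2 and Creld1 had none.

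The inducible genes rose beside the ER chaperones and the degradation machinery. Of 24 such genes tested, 23 were called higher and 0 lower, with a median log2 fold change of 0.77. Of all tested genes, 11.6% were called higher and 11.2% lower. Derl3, a component of the retrotranslocation machinery, rose by 3.76 ± 0.10 on the log2 scale (SE, edgeR adjusted p = 5.04e-12), Hyou1, a nucleotide exchange factor for BiP, by 2.59 ± 0.06 (adjusted p = 4.28e-13), and Hspa5, which encodes BiP, by 2.47 ± 0.06 (adjusted p = 1.48e-12). The increase of Creld2 lay between those of Derl3 and Hyou1, and that of Manf was a little above Hyou1. Derl2 and Derl1 had the smallest differences, 0.33 each (adjusted p = 0.000454 and 0.000269). Creld1 and Sdf2 lay beside these. Of 16 other luminal or secreted ER proteins, 14 were called higher and 0 lower, beside the same shares of all tested genes, with a median of 0.41. Nucb2 (1.47 ± 0.21), a calcium-binding protein, Hspa13 (1.42 ± 0.08), an ER-associated HSP70 family member, and Rcn3 (1.05 ± 0.24), another calcium-binding protein, had the largest of these differences. Cnpy4 (0.06 ± 0.22) and Rcn2 (-0.04 ± 0.12) were not called. These lists, like the 6 genes, were chosen with earlier results of these data known, so their counts are descriptions.

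**Figure D3:**
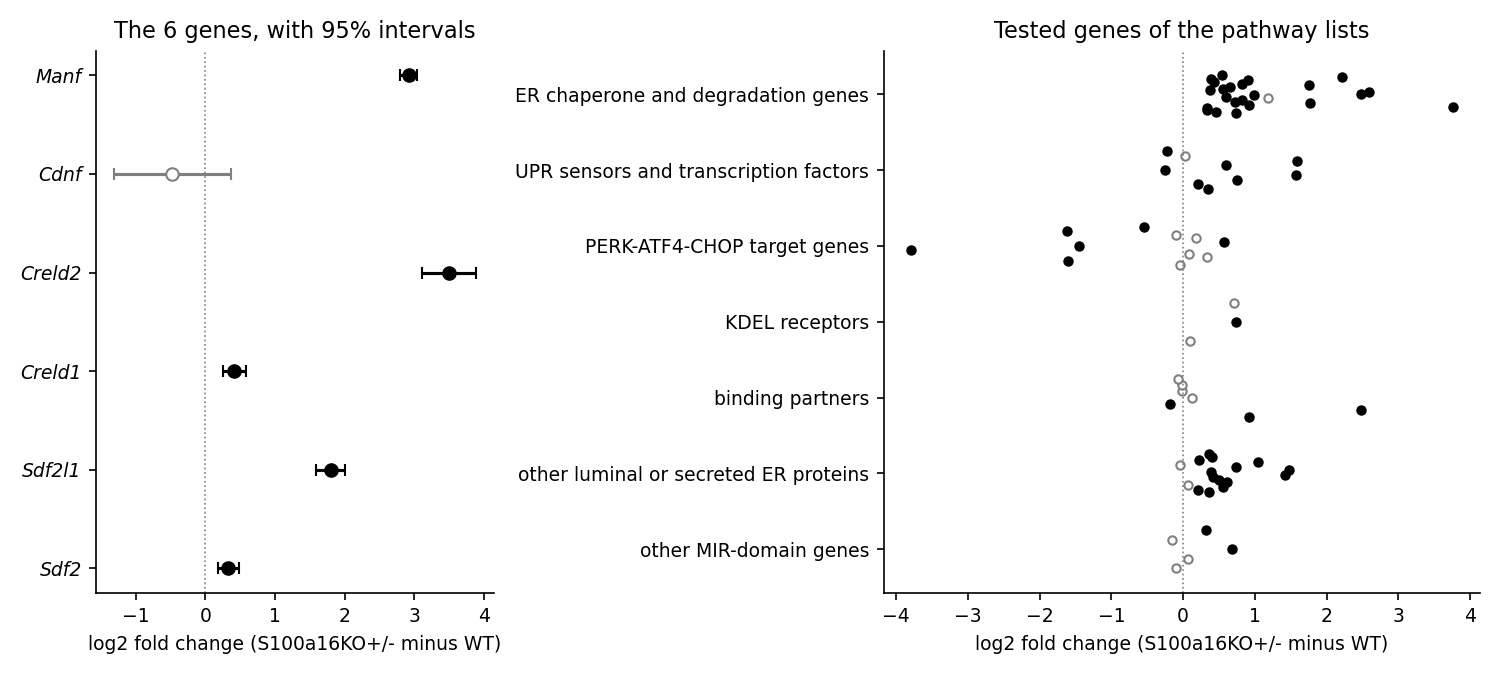
Log2 fold change between S100a16KO+/- and WT libraries (x axis) of the 6 genes with 95% intervals (left) and of every tested gene in 7 lists of related genes (right), where filled black points were called at an adjusted p under 0.05 and open grey points were not. Manf, Creld2 and Sdf2l1 lie at 2.92, 3.50 and 1.80, within the range of the ER chaperone and degradation genes (0.33 to 3.76), and most called PERK-ATF4-CHOP target genes lie left of 0.

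The sensors and transcription factors of the unfolded protein response moved less evenly. Of 9 genes, 6 were called higher and 2 lower, beside 11.6% higher and 11.2% lower of all tested genes. The alternatives called 6 to 8 of the 9 in all. Eif2ak3, which encodes the sensor PERK, rose by 1.59 ± 0.10 on the log2 scale (edgeR adjusted p = 3.77e-08) and Creb3l2, a transcription factor of the secretory pathway, by 1.58 ± 0.08 (adjusted p = 2.43e-09). Smaller increases were those of Atf6b (0.75 ± 0.11), Ddit3, which encodes CHOP (0.60 ± 0.09), Atf4 (0.35 ± 0.06) and Atf6 (0.21 ± 0.06), with adjusted p of 0.0149 at most. Ern1, which encodes the sensor IRE1 alpha, was not called (0.03 ± 0.05, adjusted p = 0.758). Xbp1 fell by 0.22 ± 0.06 (adjusted p = 0.0137), and Creb3l3, a liver ER-bound factor, by 0.25 ± 0.05 (adjusted p = 0.0015). The calls of Atf6 and Xbp1 did not hold in every alternative. Atf6 was not called without WT replicate 2 or S100a16KO+/- replicate 1 or with limma on FPKM (adjusted p up to 0.173). Xbp1 was not called without WT replicate 1, S100a16KO+/- replicate 1 or S100a16KO+/- replicate 3 (up to 0.0706). Both kept their sign, at 0.17 to 0.24 for Atf6 and -0.27 to -0.18 for Xbp1. Creb3l3 lost its call with limma on log2(FPKM + 0.1) and no filter (adjusted p = 0.0663). A gene-level count holds spliced and unspliced Xbp1 together, and cleavage of ATF6 leaves no trace in it, so the activity of these factors was not measured.

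Targets of the PERK, ATF4 and CHOP arm did not follow the inducible genes. Of 11 genes, 1 was called higher and 5 lower, with a median log2 fold change of -0.10. Among all tested genes, 11.6% were called higher and 11.2% lower, so nothing is read from the 1 call higher. Ppp1r15a, which encodes the phosphatase subunit GADD34, rose by 0.57 ± 0.09 (edgeR adjusted p = 0.000322). Chac1 (0.34 ± 0.18) and Psat1 (0.18 ± 0.23) were not called. Fgf21, a liver hormone, fell by 3.80 ± 0.13 on the log2 scale (adjusted p = 9.01e-08) and Trib3, a pseudokinase, by 1.62 ± 0.07 (adjusted p = 5.46e-10). The other genes called lower, named after their values were seen, were Atf3 (-1.60), Gdf15 (-1.46) and Vldlr (-0.54). In the same libraries, therefore, Manf and Fgf21 differed between genotypes by large amounts in opposite directions.

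Of the proteins that retain or bind the products of these genes, 1 of 3 KDEL receptor genes and 3 of 7 binding partner genes were called, against 22.8% of all tested genes, and nothing is read from counts in lists this short. Kdelr2, a receptor that returns proteins with a KDEL-type signal to the ER, rose by 0.73 ± 0.06 on the log2 scale (edgeR adjusted p = 7.14e-07), with 3607, 3611 and 3681 counts in WT and 5739, 6046 and 6171 in S100a16KO+/- libraries. Kdelr1 was not called (0.10 ± 0.07, adjusted p = 0.373), and Kdelr3 had at most 24 counts in any library. Manf thus rose 7.57-fold in libraries where the most changed receptor gene, Kdelr2, rose 1.66-fold. Of the binding partners, 2 were called higher and 1 lower. Hspa5, the partner of MANF, and Dnajb11, the partner of the SDF2 proteins (0.91 ± 0.05, adjusted p = 1.89e-08), rose. Nptn, which encodes the MANF receptor neuroplastin, was not called (0.12 ± 0.06, adjusted p = 0.205). Lrp1, which encodes a receptor that binds CRELD2, fell by 0.18 ± 0.05 (adjusted p = 0.016), a call that was lost without WT replicate 2, without S100a16KO+/- replicate 3 and with limma on FPKM (adjusted p up to 0.244). The calcineurin subunit genes Ppp3ca, Ppp3cb and Ppp3r1, whose product CRELD1 binds, had log2 fold changes of -0.01, -0.02 and -0.07 and were not called. Of the 5 other MIR-domain genes, also a short list, Itpr3 (0.68 ± 0.20, adjusted p = 0.0215) and Pomt2 (0.32 ± 0.10, adjusted p = 0.0426) were called higher, and Itpr2 (0.07), Itpr1 (-0.09) and Pomt1 (-0.16) were not, although neither call held without WT replicate 1, WT replicate 3 or S100a16KO+/- replicate 2.

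The table lists 37 genes within 50 kb of the 6 genes, of which 26 were tested, 4 called higher and 2 lower. These 6 are 23.1% of the tested neighbours, beside 22.8% of all tested genes, so nothing is read from their number. Alg12, which encodes a mannosyltransferase of N-glycan assembly, starts 328 bases from Creld2 on the opposite strand, and their promoter windows share 173 bases that include the ERSE. It had 351, 424 and 404 counts in WT and 904, 771 and 911 in S100a16KO+/- libraries, a log2 fold change of 1.14 ± 0.11 (edgeR adjusted p = 3.26e-06). Both genes of this divergent pair were thus higher in every S100a16KO+/- library than in every WT library. Supt6, divergent from Sdf2 with 242 bases of overlap, was not called (-0.04 ± 0.07, adjusted p = 0.772), and neither were Hspa14 and Gm45902, divergent from Cdnf. Pim3, a kinase gene further downstream of Creld2, rose by 0.86 ± 0.07 (adjusted p = 9.82e-07).

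Rbm15b, which encodes an RNA-binding protein, lies inside the annotated interval of Manf on the same strand. It had 487, 591 and 467 counts in WT and 993, 931 and 1252 in S100a16KO+/- libraries, a log2 fold change of 1.05 ± 0.11 (edgeR adjusted p = 1.19e-05). The principal Manf transcript, with 2247 exon bases, shares 14 exon bases with Rbm15b. The shorter 960-base Manf transcript ends 1325 bases before the start of Rbm15b. Whether transcripts running past the end of Manf add to the counts of Rbm15b was not tested. The 4930524O07Rik transcript, which starts 368 bases from Manf on the opposite strand, had 20 to 87 counts and was not called (1.03 ± 0.40, adjusted p = 0.0829). Dcaf1, which overlaps Manf by 42132 bases on the opposite strand, was not called (-0.04 ± 0.08, adjusted p = 0.775). Near the other genes, Fam107b fell by 0.56 on the log2 scale beside Cdnf, Ppil2 (0.27) and Ube2l3 (-0.31) were called beside Sdf2l1, and none of the 5 tested neighbours of Creld1 was called (edgeR). The call of Ppil2 was lost in 9 of 17 alternatives, among them the replicate block (adjusted p up to 0.161), and that of Ube2l3 in 5, among them those without WT replicate 1 or S100a16KO+/- replicate 1 (up to 0.112). The library kit marks strand, but whether the counting used strand is not given in the sources used here, so the split of reads between overlapping genes on opposite strands is uncertain.

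**Figure D4:**
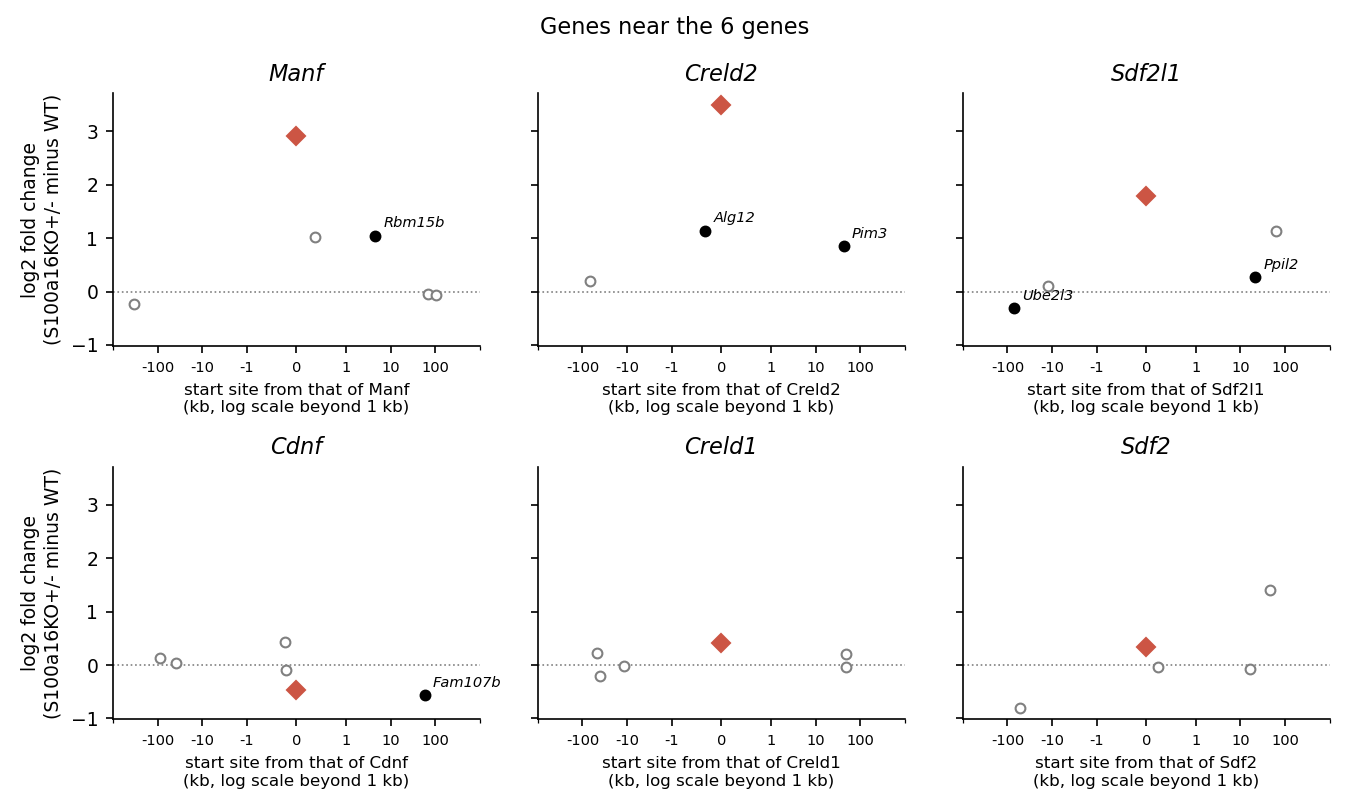
Log2 fold change between S100a16KO+/- and WT libraries (y axis) of the tested genes within 50 kb of each of the 6 genes, by the distance between start sites in kb (x axis, linear to 1 kb and logarithmic beyond, positive in the direction of transcription). The red diamond is the gene itself, filled black points were called at an adjusted p under 0.05 and open points were not, and Alg12 (1.14) and Rbm15b (1.05) are the called genes nearest to Creld2 and Manf.

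Likeness of profile was measured as the root mean square difference of log2(CPM + 1) between a gene and each of 11937 genes over the 6 libraries, after each was centred on its own mean. Nearest to Manf were Sult1e1, an oestrogen sulfotransferase (0.111), Hamp, which encodes the iron hormone hepcidin (0.156), Hyou1 (0.164), Derl3 (0.209) and Hspa5 (0.216). Creld2 was the 8th nearest to Manf and Sdf2l1 the 25th. Nearest to Creld2 were Derl3 (0.204), Sult1e1 (0.289) and Manf (0.326), and nearest to Sdf2l1 were Dnajb9, an ER co-chaperone gene (0.0732), the predicted gene Gm43314 (0.0743) and Etnppl, a phospholipid-related lyase (0.0746). The ranks are not mutual, since Manf was 757th and Creld2 7453rd from Sdf2l1, with Creld1 (1168th) and Sdf2 (1462nd) nearer to it than Creld2. With 6 libraries in 2 genotypes this measure mainly ranks genes by how close their genotype differences in log2(CPM + 1) are. Adding 1 shrinks these differences at low CPM. Sult1e1 and Derl3, at 1.40 and 2.23 CPM in WT, had edgeR log2 fold changes of 3.56 and 3.76, against 2.92 for Manf. Their nearness to Manf thus depends partly on the added 1.

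Some markers of other cell types also differed between genotypes. For comparison, 11.6% of all tested genes were called higher and 11.2% lower. All 5 erythroid genes in the table were called lower, and their sum was 214.8 to 252.2 CPM in WT and 23.4 to 26.3 in S100a16KO+/- libraries. Of 6 sinusoidal endothelial markers, 5 were called higher and 1 lower, with sums of 173.9 to 185.1 and 247.3 to 254.8 CPM. Of 8 stellate cell and fibroblast markers, 2 were called higher, with sums of 31.4 to 33.0 and 57.6 to 64.7 CPM. Of 9 Kupffer cell markers, 3 were called higher, with overlapping sums of 143.3 to 171.9 and 169.5 to 186.0 CPM. Nothing is read from the number of stellate and Kupffer calls in lists this short. No marker of the lists for T and NK cells, neutrophils, cholangiocytes, acinar cells or B and plasma cells was called higher. Only 4 neutrophil, 4 cholangiocyte and 2 acinar markers were tested, so the absence of such calls says little. In the cholangiocyte list, 1 marker was called lower. Of the 7 B and plasma cell markers, 2 were called lower and 5 were not called, with sums of 212.4 to 233.7 CPM in WT and 191.5 to 205.2 in S100a16KO+/- libraries. The part of other cells in the increases of Manf, Creld2 and Sdf2l1 was not tested.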

How the data were processed

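Gene expression was measured by poly(A) RNA sequencing in 6 libraries, 3 per genotype, grouped by their labels, and all were used. The deposited table gives, for each gene and library, an estimated count and an FPKM value that the authors made. The submitters' processing notes name cutadapt 1.9, HISAT2 2.0.4, StringTie 1.3.4d, UMI-tools, edgeR, DESeq2 and the build mm10. Adapters carried molecular identifiers, and whether counts were made from distinct identifiers is not given in the sources used here.

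Counts were rounded to whole numbers, filtered with filterByExpr, scaled by TMM and tested with edgeR 4.0.16 (quasi-likelihood, R 4.3.3, Benjamini-Hochberg over 15957 genes). Limma 3.58.1 and DESeq2 1.42.0 served as alternatives. In a test on simulated data for this comparison (15528 genes tested, 50 changed genes per fold size), 64% of 1.5-fold, 86% of 2-fold, 100% of 4-fold and 100% of 8-fold changes were recovered, with 7 false calls. The changed genes were drawn above a floor on mean CPM that Cdnf and Kdelr3 did not reach, so these rates do not cover genes that low. Simulated counts took the negative binomial dispersion of the fit without its gene-by-gene quasi-likelihood spread. The rates may therefore not hold for genes that vary much between libraries. Fold changes are S100a16KO+/- over WT. Paralog ratios used FPKM + 0.01 and an exact permutation test. Of 25718 gene identifiers, 25655 were in GENCODE M21, and 86.5% of those had the same start and end.

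The members and gene lists were chosen with earlier results of these data known. Named were the 6 genes, neighbours that overlapped, started within 1 kb on the opposite strand or were called, the 5 genes nearest in profile to Manf and the 3 nearest to Creld2 and to Sdf2l1, every gene of the short lists, and the 3 largest and 2 smallest fold changes of the longer lists. Intervals and tests cover the spread between libraries only.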

Additional observations from a re-analysis of the deposited data

How the results depend on the processing

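The log2 fold changes of all 6 genes kept their sign under every alternative that gave a value: 2.74 to 2.94 for Manf, 3.32 to 3.62 for Creld2, 1.65 to 1.89 for Sdf2l1, 0.36 to 0.49 for Creld1, 0.29 to 0.40 for Sdf2 and -0.65 to -0.07 for Cdnf. Alternatives were median-ratio size factors, the DESeq2 Wald test, limma voom, limma on log2 FPKM, other filters, counts divided by 4, leaving out each library, and, added after the data were seen, leaving out both libraries that stood apart. Manf, Creld2, Sdf2l1 and Sdf2 stayed called throughout, Cdnf was never called, and 3 of the 6 genes met the study's criterion in each. Cdnf had no value with a filter of 1 CPM in 3 libraries or with counts divided by 4, since it did not pass those filters. Creld1 lost its call with limma on log2(FPKM + 0.1) without a filter (0.42, adjusted p = 0.0761), and the cause was not tested. The number of called genes, 3643, was 2316 with limma on log2(FPKM + 1), 2305 on log2(FPKM + 0.1) and 1718 on the latter without a filter. The count of called MIR-domain genes, 2, was 0 under each of these 3 settings, and 0 without both WT replicate 1 and S100a16KO+/- replicate 2.

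Leaving out 1 library at a time gave 2734 to 3302 called genes, 0 to 2 called MIR-domain genes, and log2 ratio differences of 3.20 to 3.52 for Manf to Cdnf, 2.96 to 3.24 for Creld2 to Creld1 and 1.43 to 1.49 for Sdf2l1 to Sdf2. Called ER chaperone and degradation genes, 23, ranged from 19 (limma on log2(FPKM + 0.1) without a filter) to 24 (without S100a16KO+/- replicate 2, with or without WT replicate 1), other luminal or secreted ER genes from 12 to 14, and neighbours from 4 to 6.

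Replicate numbers are shared by the genotypes, but same-numbered libraries did not deviate together (correlations -0.047, -0.024 and 0.052), and not every library correlated best with its own number. With the replicate block 3082 genes were called, Manf was 2.92 and no call of the 6 genes changed. The exact paired sign-flip test of the ratios gave p = 0.25, its smallest possible value. Depth limits Cdnf and Kdelr3.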

Other observations

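Ero1lb, which encodes an ER oxidase and was the chaperone-list gene that missed the threshold, split the S100a16KO+/- libraries. It had 2514, 2851 and 2706 counts in WT and 7951, 2484 and 7981 in S100a16KO+/- libraries, so S100a16KO+/- replicate 2 lay at the WT level while the other 2 S100a16KO+/- libraries lay far above it (log2 fold change 1.18 ± 0.48, edgeR adjusted p = 0.181). Manf had 12720, 11940 and 12902 counts in the same S100a16KO+/- libraries and showed no such split.

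With 1 mismatch allowed, a search chosen after the sequences were seen, the Creld1 window held an ERSE-like run (CATGGCTTTCCATAATTGG), which 1.504% of all windows hold in some form. The Sdf2l1 window held an ERSE-II-like run (CGTGGACCAGT) and the Creld2 window another (ATTGGTCCACA), which 1.16% of windows hold. The promoter window of Hspa5 held 1 exact ERSE (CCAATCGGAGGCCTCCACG), as did that of Creld2.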
